A study of Mus musculus with 6 samples.

Results

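MHC class I genes and the genes that load peptide onto class I molecules were followed in natural killer (NK) cells of mouse spleen. By gene symbol, 10 of the 55291 rows of the deposited count table were taken: the classical heavy chains H2-D1 and H2-K1, the non-classical heavy chains H2-Q4, H2-Q6, H2-Q7, H2-T22 and H2-T23, the light chain B2m, and the loading genes Tap1 and Tapbp. The libraries came from 3 mice in which a pair of serines of heat shock factor 1 (HSF1), named in the allele S303/7A, is replaced by alanine (S303/7A 5, 6 and 7) and from 3 mice with wild-type HSF1 (WT 1, 2 and 3). All mice were at steady state. Splenocytes were enriched on DX5 beads and sorted as CD49b+, CD3e- cells, and the total RNA of each mouse became 1 SMART-seq HT library. The labels give no age, litter or batch. A table of counts per gene does not show the 2 amino acid changes, so the genotype of each library rests on its label.

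Class I molecules display peptides made in the cell. A polymorphic heavy chain pairs with beta-2-microglobulin, the product of B2m, in the endoplasmic reticulum. The transporter formed by the Tap1 and Tap2 products brings in peptides cut by the proteasome, and tapasin, the product of Tapbp, holds the empty heavy chain at that transporter until a peptide is bound. NK cells carry class I molecules themselves and also read them on other cells: receptors of the Ly49 family bind classical class I molecules, and the pair of CD94 with NKG2A binds the H2-T23 product Qa-1.

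The totals were 43189163, 43676820 and 47248039 counts in S303/7A 5, 6 and 7 and 62667303, 53845572 and 72736406 in WT 1, 2 and 3. The 10 NK markers summed to between 25912.7 and 26979.6 CPM (counts relative to library size, here scaled by TMM factors) in S303/7A libraries and between 24799.7 and 28686.8 CPM in WT libraries. B cell markers summed to between 35.9 and 77.4 CPM in S303/7A libraries and between 13.3 and 94.3 CPM in WT libraries. Markers of monocytes, macrophages and dendritic cells summed to between 306 and 513 CPM in S303/7A libraries and between 590 and 778 CPM in WT libraries. Basophil markers summed to between 255 and 356 CPM in S303/7A libraries and between 416 and 849 CPM in WT libraries, and platelet markers to between 99.0 and 142 CPM in S303/7A libraries and between 218 and 238 CPM in WT libraries. Neutrophil markers summed to between 27.8 and 33.98 CPM in S303/7A libraries and between 45.8 and 76.7 CPM in WT libraries, and T cell markers to between 169 and 206 CPM in S303/7A libraries and between 150.4 and 186 CPM in WT libraries. For the monocyte, basophil, platelet and neutrophil sums the S303/7A range lay wholly below the WT range, and for the NK, B and T cell sums the ranges overlapped. No listed marker of these types was at 0 in all libraries, and the part of such cells in the results was not tested. In bulk samples, fewer cells of a type and less RNA per cell cannot be told apart. One library stands apart in several class I genes: S303/7A 6 lay near the WT libraries where S303/7A 5 and 7 did not. The labels give no strain for any mouse, so the part of strain background or MHC haplotype in the values of H2-D1, the Q genes, Glo1 and the Ly49 genes was not tested. Values that carry a result are therefore given per library, and tests of class I genes that rest on that difference are given with and without S303/7A 6.

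None of the 10 genes differed between S303/7A and WT at an adjusted p under 0.05 in edgeR's quasi-likelihood test, in which 0.364% of the 16480 genes tested passed. None passed in DESeq2 or limma-voom either. All 10 were above the filter on low counts. H2-D1 and H2-Q4, 2 of the 10, had an unadjusted p under 0.05, against 9.68% of all genes tested. H2-D1 was the 1 member whose S303/7A and WT libraries did not overlap, against 16.0% of all genes tested. The median log2 fold of the 10 genes was -0.04, with 4 above and 6 below 0, and the median of all genes tested was 0.01. Without S303/7A 6, H2-D1 and H2-Q4 passed the test, among 57 of 17591 genes (0.324%). The split between S303/7A libraries was known when that fit was read, so it describes the split and is no separate evidence for it.

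**Figure D1:**
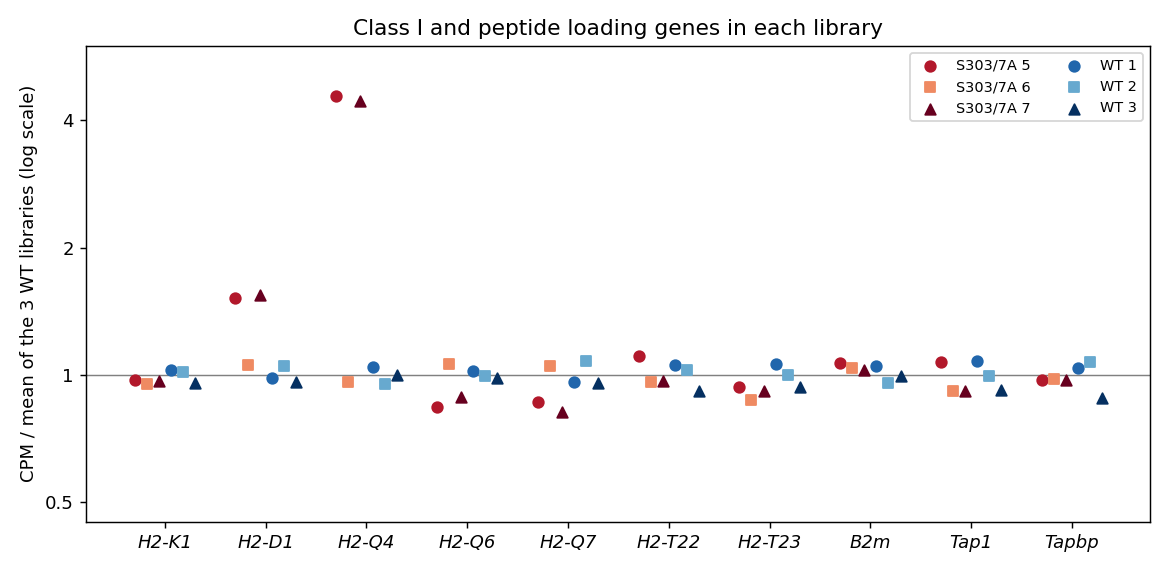
CPM of each class I and loading gene in each library, divided by the mean of the 3 WT libraries, on a log scale. H2-Q4 and H2-D1 are high in S303/7A 5 and 7, and S303/7A 6 lies near the WT libraries. The other 8 genes stay close to the line at 1 in all 6 libraries.

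H2-D1 encodes the classical heavy chain of the D locus, which presents peptide to CD8+ T cells, and lies at chr17:35262730-35267499 on the plus strand (GRCm38). It held the largest count of the whole table in all 6 libraries. Its level was 14959.5, 10366 and 15154 CPM in S303/7A 5, 6 and 7, against 9689, 10348 and 9448 CPM in WT 1, 2 and 3. S303/7A 5 and 7 thus lay well above every WT library, and S303/7A 6 exceeded the highest WT library by a margin far smaller than the spread among the WT libraries. The means were 13493 ± 2710 CPM in S303/7A and 9828 ± 466 CPM in WT (SD, n = 3 each). The log2 fold was 0.46 ± 0.14 (SE, 95% interval 0.13 to 0.79), with an adjusted p of 0.348. Leaving out S303/7A 6, it was 0.61 ± 0.05, with an adjusted p of 0.0106.

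H2-K1 encodes the classical heavy chain of the K locus, at chr17:33996017-34000347 on the minus strand. Its level was 5033, 4924 and 5007 CPM in S303/7A 5, 6 and 7, against 5311, 5243 and 4958 CPM in WT 1, 2 and 3. S303/7A 5 and 7 lay inside the WT range, and S303/7A 6 was just below it. The log2 fold was -0.05 ± 0.05 (95% interval -0.17 to 0.06), with an adjusted p of 0.825. The classical heavy chains could also be compared within a library, where scaling between libraries plays no part. The count of H2-D1 was 2.97, 2.11 and 3.03 times that of H2-K1 in S303/7A 5, 6 and 7, and 1.82, 1.97 and 1.91 times in WT 1, 2 and 3. Set against B2m, H2-D1 was 4.16, 2.95 and 4.38 times as high in the S303/7A libraries and 2.74, 3.20 and 2.82 times in the WT libraries. By both ratios S303/7A 5 and 7 were above all WT libraries, while S303/7A 6 was inside the WT range for the ratio to B2m and just above it for the ratio to H2-K1.

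H2-Q4, which encodes the non-classical heavy chain Qb-1, lies at chr17:35379617-35385290 on the plus strand. It had 73.5, 15.5 and 71.7 CPM in S303/7A 5, 6 and 7, against 16.9, 15.3 and 16.1 CPM in WT 1, 2 and 3. S303/7A 6 was inside the WT range, and the other two S303/7A libraries were each more than 4-fold above the WT mean, at ratios of 4.57 and 4.45. The means were 53.6 ± 33.0 CPM in S303/7A and 16.1 ± 0.760 CPM in WT (SD, n = 3 each), with far more spread among S303/7A than among WT libraries. The log2 fold was 1.73 ± 0.52 (SE, 95% interval 0.52 to 2.95), with an adjusted p of 0.334. It was 2.17 ± 0.11 without S303/7A 6, with an adjusted p of 0.00225. When another library was left out, the largest adjusted p was 0.697 for H2-Q4 and 0.655 for H2-D1.

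H2-Q6 and H2-Q7 are neighbouring genes for Qa-2, a class I molecule anchored in the membrane by a lipid. H2-Q6 (chr17:35424850-35430055, plus strand) had 1017, 1283 and 1075 CPM in S303/7A 5, 6 and 7 and 1241, 1204 and 1189 CPM in WT 1, 2 and 3. H2-Q7 (chr17:35439155-35443773, plus strand) had 919, 1117 and 871 CPM in S303/7A 5, 6 and 7 and 1023, 1151 and 1018 CPM in WT 1, 2 and 3. For both genes S303/7A 5 and 7 were below every WT library, and S303/7A 6 was not. The log2 folds were -0.11 ± 0.09 (95% interval -0.32 to 0.10) for H2-Q6 and -0.14 ± 0.10 (95% interval -0.38 to 0.11) for H2-Q7, with adjusted p of 0.795 and 0.770. They became -0.21 and -0.25 without S303/7A 6, and neither passed (adjusted p 0.301 and 0.374).

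Reads of these 2 genes are hard to keep apart, since 35.0% of the 50-base windows of the H2-Q6 transcript and 34.9% of those of the H2-Q7 transcript occur in another gene's transcripts, most often each other's. Their counts are therefore uncertain one by one. Added together they had 1936, 2399.5 and 1946 CPM in S303/7A 5, 6 and 7 and 2264, 2355 and 2207 CPM in WT 1, 2 and 3, with a log2 fold of -0.12 and an adjusted p of 0.767. In the sum too, S303/7A 5 and 7 were the lowest libraries. The H2-Q4 transcript shares 39.2% of its 50-base windows, that of H2-T22 44.7%, that of H2-T23 29.8%, that of H2-D1 14.3% and that of H2-K1 8.79%. B2m shares none.

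**Figure D2:**
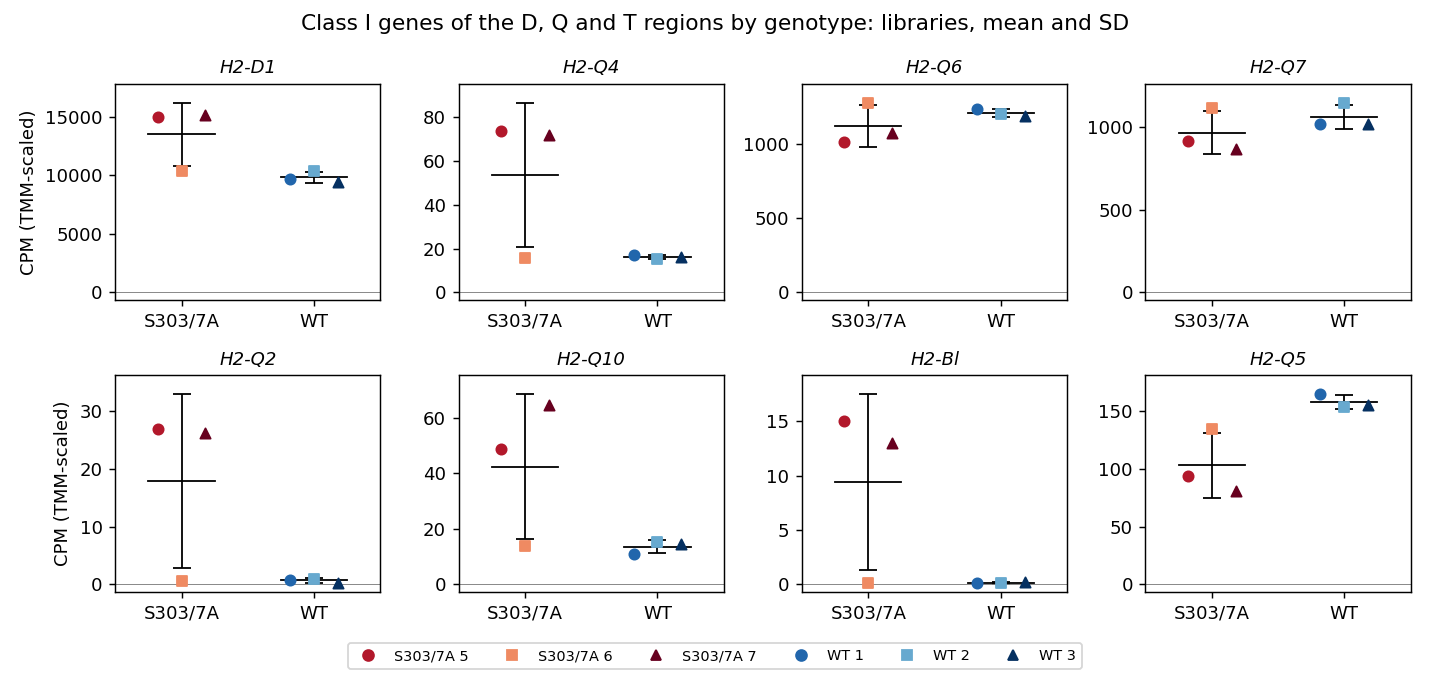
CPM of 8 class I genes in each library (points), with the mean (long line) and SD (error bars) of 3 S303/7A and 3 WT libraries. All axes include 0. S303/7A 6 sits at the WT level for H2-D1, H2-Q4, H2-Q2, H2-Q10 and H2-Bl, and H2-Q5 is lower in all 3 S303/7A libraries than in any WT library.

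Neither gene of the T region passed the test. H2-T23, whose product Qa-1 carries leader peptides of other class I chains to CD94 and NKG2 receptors, lies at chr17:36029773-36032855 on the minus strand. It had 562, 525 and 551 CPM in S303/7A 5, 6 and 7 and 638, 602 and 561 CPM in WT 1, 2 and 3. The groups touch at S303/7A 5 and WT 3, and the other S303/7A libraries were below all WT libraries. The log2 fold was -0.14 ± 0.07 (95% interval -0.29 to 0.02), with an adjusted p of 0.590. H2-T22, which gamma delta T cells can recognise, lies at chr17:36037128-36042747 on the minus strand and had 131, 114 and 115 CPM in S303/7A 5, 6 and 7 and 125, 121 and 108 CPM in WT 1, 2 and 3. Its ranges overlapped, with a log2 fold of 0.02 ± 0.09 (95% interval -0.19 to 0.23) and an adjusted p of 0.977.

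The shared light chain and the loading genes did not pass either, and their libraries overlapped. B2m, the 1 member outside chromosome 17, lies at chr2:122147686-122153083 on the plus strand. Its level was 3599.5, 3513 and 3459 CPM in S303/7A 5, 6 and 7, against 3537, 3232 and 3355 CPM in WT 1, 2 and 3. These overlap, and the log2 fold was 0.06 ± 0.05 (95% interval -0.06 to 0.19), with an adjusted p of 0.799. Tap1 (chr17:34187553-34197225, plus strand) had 316, 270.0 and 271 CPM in S303/7A 5, 6 and 7 and 318, 294 and 272 CPM in WT 1, 2 and 3. Tapbp (chr17:33915899-33929292, plus strand) had 794, 796 and 790.5 CPM in S303/7A 5, 6 and 7 and 847, 876 and 720 CPM in WT 1, 2 and 3. Tapbp was the most even gene of the 10 among S303/7A libraries, within 1.01-fold, and its WT libraries spread 1.22-fold around them. The log2 folds were -0.04 ± 0.09 (95% interval -0.26 to 0.17) for Tap1 and -0.04 ± 0.08 (95% interval -0.23 to 0.15) for Tapbp, with adjusted p of 0.939 and 0.943. Of the 95% intervals of H2-K1, H2-T22, B2m, Tap1 and Tapbp, that of Tap1 reached farthest from 0, at -0.26, so small differences in either direction remain possible.

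Per length of merged exon, H2-D1 and B2m were above the other members, and close to each other in the WT libraries and in S303/7A 6. That closeness depends on the length used. H2-D1 has 2579 bases of merged exon and a longest protein-coding transcript of 2102 bases, while B2m has 860 bases by both. In S303/7A libraries H2-D1 averaged 5232 ± 1051 CPM per kb and B2m 4098 ± 82.4 (SD, n = 3 each, here and below). Their ranges overlapped only through S303/7A 6, the lowest of these libraries for H2-D1 at 4019 CPM per kb. The other S303/7A libraries had more H2-D1 than B2m per kb. In WT libraries H2-D1 averaged 3811 ± 181 and B2m 3924 ± 178.5 CPM per kb, and these overlapped too. H2-K1 came next, at 1698 ± 19.3 CPM per kb in S303/7A and 1760.0 ± 63.7 in WT libraries, followed by H2-Q6 at 539.5 ± 67.1 in S303/7A and 581 ± 12.8 in WT libraries. H2-Q7, Tapbp and H2-T23 lay close together, at 227, 219 and 189 CPM per kb in S303/7A and 249.5, 224.5 and 208 CPM per kb in WT libraries. Of these neighbours, H2-Q7 and Tapbp overlapped in both genotypes, and Tapbp and H2-T23 in WT alone. These levels rest on merged exons of 2085 bases for H2-Q6, 4265 for H2-Q7, 3628 for Tapbp and 2889 for H2-T23. Their longest protein-coding transcripts have 2085, 1523, 2898 and 1472 bases, so the order and closeness of these genes depend on the length used. Tap1 had 52.2 ± 4.86 CPM per kb in S303/7A and 53.8 ± 4.20 in WT libraries, and H2-T22 had 35.1 ± 2.82 in S303/7A and 34.6 ± 2.56 in WT libraries. H2-Q4 was the lowest of the 10 in both genotypes, at 20.6 ± 12.7 CPM per kb in S303/7A and 6.20 ± 0.293 in WT libraries.

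**Figure D3:**
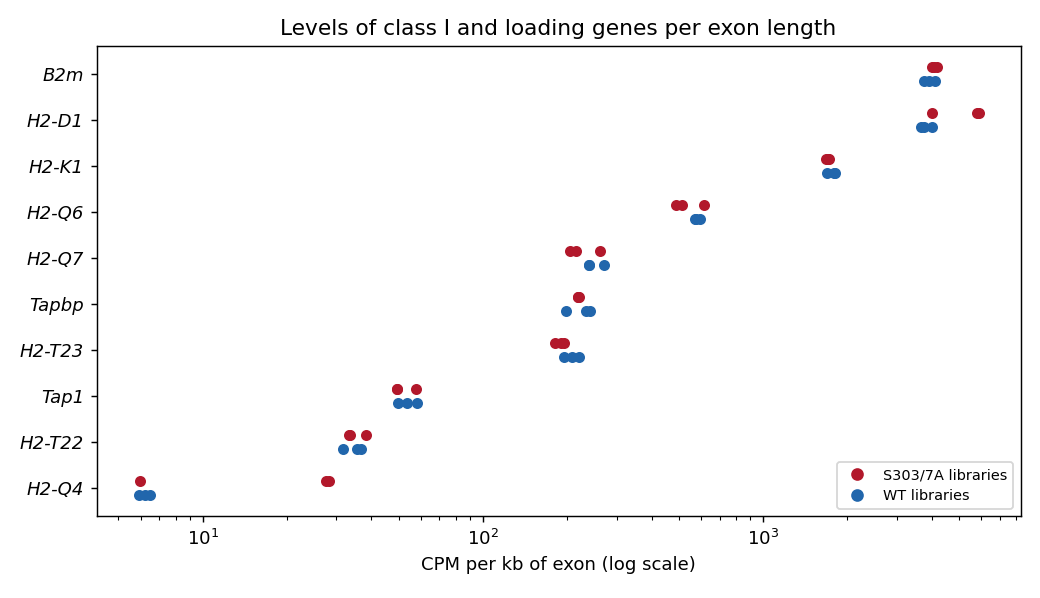
Levels of the 10 genes in CPM per kb of merged exon length, on a log axis, with 1 point per library and the S303/7A libraries above the WT libraries in each row. H2-D1 and B2m stand at the top and H2-Q4 at the bottom, and H2-Q4 and H2-D1 show the widest spread among S303/7A libraries.

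The promoters of H2-D1 and H2-Q4, whose S303/7A libraries split, resemble those of H2-K1, H2-Q6 and H2-Q7, and the 5 are shown for that comparison. The 250 bases before the RefSeq start of each gene are given 5′ to 3′ on the gene's strand (RefSeq, GRCm38.p6): chr17:35262844-35263093 plus for H2-D1, chr17:34000348-34000597 minus for H2-K1, chr17:35379367-35379616 plus for H2-Q4, chr17:35424600-35424849 plus for H2-Q6 and chr17:35438905-35439154 plus for H2-Q7. Capitals mark the kappa B motif GGGATTCCC or its variant GGGATTTCC, to which NF-kappa B family proteins are known to bind, and the interferon response core TTTCACTTC.
H2-D1: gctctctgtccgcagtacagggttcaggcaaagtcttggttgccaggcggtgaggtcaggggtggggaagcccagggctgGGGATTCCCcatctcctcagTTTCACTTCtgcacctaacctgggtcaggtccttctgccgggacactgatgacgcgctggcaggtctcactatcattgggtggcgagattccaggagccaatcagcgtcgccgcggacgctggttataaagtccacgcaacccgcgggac
H2-K1: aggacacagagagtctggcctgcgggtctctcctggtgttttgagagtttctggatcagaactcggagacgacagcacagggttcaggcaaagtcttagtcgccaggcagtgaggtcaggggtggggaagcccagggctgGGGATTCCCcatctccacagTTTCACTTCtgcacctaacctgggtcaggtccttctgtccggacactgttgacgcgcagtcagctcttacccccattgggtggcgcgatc
H2-Q4: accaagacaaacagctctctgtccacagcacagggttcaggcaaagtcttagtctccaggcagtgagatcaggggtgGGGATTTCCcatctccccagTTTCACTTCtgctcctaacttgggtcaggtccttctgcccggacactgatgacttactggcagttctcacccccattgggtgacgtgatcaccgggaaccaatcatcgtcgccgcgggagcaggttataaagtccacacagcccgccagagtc
H2-Q6: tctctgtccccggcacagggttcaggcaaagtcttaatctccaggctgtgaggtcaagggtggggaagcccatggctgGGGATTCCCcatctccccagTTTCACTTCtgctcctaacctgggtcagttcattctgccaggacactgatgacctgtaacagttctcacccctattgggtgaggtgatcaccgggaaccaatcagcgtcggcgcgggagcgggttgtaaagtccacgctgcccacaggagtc
H2-Q7: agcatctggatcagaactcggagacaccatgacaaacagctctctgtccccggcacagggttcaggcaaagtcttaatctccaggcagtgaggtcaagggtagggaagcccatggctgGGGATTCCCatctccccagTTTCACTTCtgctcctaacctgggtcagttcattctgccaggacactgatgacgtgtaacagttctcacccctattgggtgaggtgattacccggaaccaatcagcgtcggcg
All 10 genes had a RefSeq promoter. H2-D1, H2-K1, H2-Q6 and H2-Q7 hold GGGATTCCC, which 0.315% of 27025 promoters of the same length hold on either strand. H2-Q4 holds GGGATTTCC, found in 0.281% of promoters. All 5 hold TTTCACTTC, found in 0.429%, and in none of these does the core overlap the kappa B motif. Over the aligned bases the H2-D1 promoter is 87.4% identical to that of H2-K1 and 85.9% to that of H2-Q4, and the H2-Q6 and H2-Q7 promoters are 97.6% identical. The promoters of H2-T22 and H2-T23 hold neither motif and are between 54.5% and 67.5% identical to those of the other heavy chains. A pair of inverted heat shock units, the pattern that HSF1 family factors bind, was searched as GAANNTTC, which Tap1 holds (6.79% of promoters), and as TTCNNGAA, which B2m holds (7.18%). The other 8 promoters hold neither of these letters in this window. A match of letters is a description and not a binding site. The sequences are those of the reference build, and the labels give no strain, so those of these mice may differ.

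The pattern of H2-D1 and H2-Q4 was shared by other class I genes of the Q and T regions. A list of 25 further class I genes had 21 in the table and 10 tested. None of the 10 passed the test. For 6 the unadjusted p was below 0.05, with 4 higher and 2 lower in S303/7A, against 9.68% of all genes tested. The median log2 fold was 0.08. H2-Q2 had 1152, 25 and 1229 counts in S303/7A 5, 6 and 7 and 49, 54 and 15 counts in WT 1, 2 and 3. H2-Q1 had 249, 9 and 311 counts in S303/7A 5, 6 and 7 and 8, 2 and 7 counts in WT 1, 2 and 3. H2-Bl, a class I gene named for its expression in blastocysts, had 645, 5 and 605 counts in S303/7A 5, 6 and 7 and 5, 6 and 15 counts in WT 1, 2 and 3. These 3 genes were close to silent in the WT libraries and in S303/7A 6, and plainly present in the other two S303/7A libraries. Reads are shared here too. Of the 50-base windows, 22.9% of those of the H2-Q1 transcript, 8.74% of those of H2-Q2 and 35.4% of those of H2-Q5 occur in another gene. None of those of the 862-base H2-Bl transcript that was searched do. Other H2-Bl transcripts share 50-base windows with H2-Q2, so the H2-Bl counts are uncertain too. The log2 fold was 4.78 ± 1.28 for H2-Q2 (adjusted p 0.273), 5.55 ± 1.23 for H2-Q1 (0.182) and 6.11 ± 1.48 for H2-Bl (0.223).

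H2-Q10, which encodes a class I molecule that the liver secretes, had 48.6, 13.6 and 64.7 CPM in S303/7A 5, 6 and 7 and 10.9, 15.2 and 14.7 CPM in WT 1, 2 and 3. Its log2 fold was 1.64 ± 0.50, with an adjusted p of 0.348. H2-Q5 went the other way, with 93.6, 135 and 80.6 CPM in S303/7A 5, 6 and 7 and 164, 154 and 155 CPM in WT 1, 2 and 3. No S303/7A library reached a WT library for H2-Q5, and the log2 fold was -0.62 ± 0.18, with an adjusted p of 0.320. In the fit without S303/7A 6 all 5 of these genes passed: H2-Q1, H2-Q2, H2-Q10 and H2-Bl were higher and H2-Q5 was lower. H2-M2 had the other unadjusted p under 0.05 in the lower direction, at no more than 0.245 CPM in any library. H2-K2, H2-T10, H2-T24 and H2-M3, named with H2-M2 after their values were seen, had log2 folds between 0.00 and 0.12.

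The annotation places 238 tested genes between 28915899 and 41042747 on chromosome 17, which is the span of the members with 5 Mb on either side. Of the 238, 2 passed the test, both lower in S303/7A: Rab44, with a log2 fold of -1.93 ± 0.24 and an adjusted p of 0.0389, and Rgl2, a neighbour of Tapbp, with -0.51 ± 0.07 and 0.0490. Both calls were lost when any single library was left out and with limma-voom. The median log2 fold of the stretch was -0.02. Each gene was then described per library, taking the 195 genes of the stretch with a mean of at least 1 CPM. In 11 of them (5.64%) 2 S303/7A libraries were at least 1.5-fold above the highest WT library and S303/7A 6 was not, against 40 of 12252 genes (0.327%) placed elsewhere. In 2 more (1.03%), H2-Q5 and Hspa1a, the same held in the lower direction, against 78 genes elsewhere (0.637%). With S303/7A 5 or S303/7A 7 as the odd library, no gene of the stretch showed such a pattern.

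The 11 genes that were higher fell into 2 runs. One run lies around Glo1, which encodes the methylglyoxal-detoxifying enzyme glyoxalase 1. Glo1 had 139, 51.4 and 140 CPM in S303/7A 5, 6 and 7 and 46.3, 47.5 and 45.6 CPM in WT 1, 2 and 3, at a log2 fold of 1.24 ± 0.34 with an adjusted p of 0.288. Dnah8, which encodes a dynein heavy chain, had 47.2, 19.4 and 60.2 CPM in S303/7A 5, 6 and 7 and 11.8, 11.9 and 20.3 CPM in WT 1, 2 and 3. Dnah8, Gm8373 and 1700097N02Rik each overlap Glo1, and with the strand setting of the counting not given, reads of the overlaps cannot be told apart. The other run is H2-Q1, H2-Q2, H2-Q4 and H2-Q10 with H2-Bl, the pseudogene H2-T-ps and the predicted gene Gm8909. Gm8373, 1700097N02Rik, H2-T-ps, Gm8909 and Hspa1a were named after their values were seen. Gm8909 had 31.0, 0.534 and 38.5 CPM in S303/7A 5, 6 and 7 and 0.349, 0.294 and 0.422 CPM in WT 1, 2 and 3. Its transcript and that of H2-T-ps each share 29.4% of their 50-base windows with other genes, so both counts are uncertain. H2-K1, Tapbp and Tap1 lie between the runs and did not follow them. With S303/7A 6 left out, 11 genes of the stretch passed the test, 10 higher and 1 lower, and H2-D1, H2-Q4, Glo1 and Gm8909 were among the 10. Hspa1b, which encodes an inducible HSP70 and is a known HSF1 target, had 1.82, 3.02 and 2.08 CPM in S303/7A 5, 6 and 7 and 13.01, 89.3 and 10.9 CPM in WT 1, 2 and 3. All S303/7A libraries were below all WT libraries, with WT 2 far above the other two, and the log2 fold was -4.03 ± 0.89 with an adjusted p of 0.181. Leaving out WT 2 brought it to -2.39 (adjusted p 0.103).

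**Figure D4:**
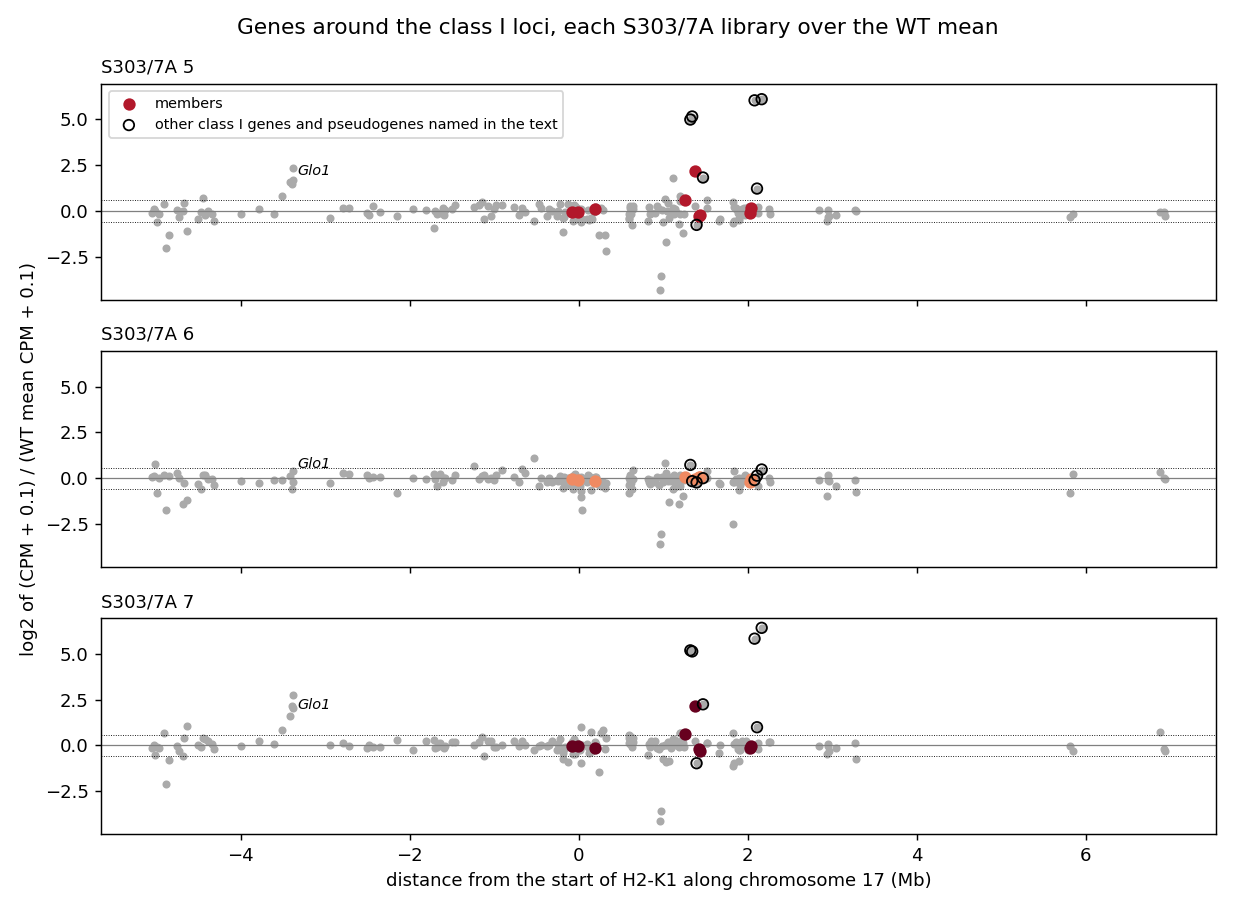
Genes of chromosome 17 around the class I loci, plotted by distance from the start of H2-K1 in Mb, as the log2 ratio of each S303/7A library to the mean of the 3 WT libraries, with a pseudocount of 0.1 CPM. Coloured points are members, open circles are other class I genes and pseudogenes, and dotted lines mark 1.5-fold. The high points near Glo1 and near the Q and T genes in S303/7A 5 and 7 are missing in S303/7A 6.

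A class II gene in the same stretch followed these libraries too. H2-Ea, named after its values were seen, had 25, 0 and 54 counts in S303/7A 5, 6 and 7 and none in WT 1, 2 and 3. A count of 0 allows up to 3 counts, which is 0.0696 CPM in S303/7A 6 and between 0.0408 and 0.0552 CPM in the WT libraries. As background, mice of the b haplotype, to which C57BL/6 belongs, do not transcribe H2-Ea, whereas several other haplotypes do. Other class II genes, which B cells and dendritic cells express, were in no case above all WT libraries in both S303/7A 5 and 7. H2-DMa, H2-DMb1 and H2-Ob, named after their values were seen, split the other way. In these genes S303/7A 5 and 7 were below all WT libraries, and S303/7A 6 was inside the WT range. H2-DMa had 41.85, 63.57 and 43.01 CPM in S303/7A 5, 6 and 7 and 68.26, 58.87 and 47.69 CPM in WT 1, 2 and 3. The remaining class II genes varied from library to library without such a split. H2-Ab1 had 53.6, 35.6 and 78.0 CPM in S303/7A 5, 6 and 7 and 36.5, 99.7 and 8.87 CPM in WT 1, 2 and 3, and none of the 11 class II genes tested had an unadjusted p under 0.05. The summed B cell markers ran in a like order, with 35.9, 36.6 and 77.4 CPM in S303/7A 5, 6 and 7, against 36.3, 94.3 and 13.3 CPM in WT 1, 2 and 3, and their part in the class II values was not tested.

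Genes on other chromosomes came near H2-Q4 in their values over the 6 libraries. Among 1488 genes with a mean log2 CPM of at least 2 and a range of at least 1, the 5 with the highest Pearson r to H2-Q4 were Actr3-ps on chromosome X (0.996), Glo1 (0.994), Klra14-ps on chromosome 6 (0.990), Ptprv on chromosome 1 (0.988) and Klra8 on chromosome 6 (0.984). Actr3-ps had 74.6, 14.98 and 65.2 CPM in S303/7A 5, 6 and 7 and 13.6, 13.7 and 13.1 CPM in WT 1, 2 and 3. These r describe 6 libraries that fall into a high pair and a low set, and they carry no test. The 5 genes most like the mean of the other 9 members were Tgtp1 (0.972), Lpcat1 (0.966), Serpina3g (0.961), Gm39556 (0.958) and E2f6 (0.943). WT 3 was the lowest library in all 5, and these r carry no test either. Of the 9 members, those other than H2-D1 varied little over the 6 libraries. Serpina3g, which encodes a serine protease inhibitor, had 314, 268 and 278 CPM in S303/7A 5, 6 and 7 and 368, 372 and 171.5 CPM in WT 1, 2 and 3.

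In the rest of the loading pathway, none of 16 further loading and peptide supply genes passed the test, and their median log2 fold was -0.02. Of the 16, 3 had an unadjusted p under 0.05, against 9.68% of all genes tested. Calr, which encodes the chaperone calreticulin, had 408, 419 and 404 CPM in S303/7A 5, 6 and 7 and 492, 484 and 447 CPM in WT 1, 2 and 3. The S303/7A libraries were all below the WT libraries, at a log2 fold of -0.21 ± 0.06, with an adjusted p of 0.312. Psmb8, an immunoproteasome subunit, had 577, 528 and 558 CPM in S303/7A 5, 6 and 7 and 522, 485 and 480.5 CPM in WT 1, 2 and 3. Its log2 fold was 0.16 ± 0.06 (adjusted p 0.483), close to that of the immunoproteasome subunit Psmb10 at 0.17 ± 0.06 (adjusted p 0.449). Tap2, the partner of Tap1, had a log2 fold of 0.12 ± 0.07, with an adjusted p of 0.671.

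Nlrc5, the activator of class I gene transcription, had 205, 163 and 150 CPM in S303/7A 5, 6 and 7 and 155, 164 and 168 CPM in WT 1, 2 and 3, a log2 fold of 0.09 ± 0.12 with an adjusted p of 0.895. S303/7A 5 had the highest and S303/7A 7 the lowest level of Nlrc5 among the 6 libraries. None of the 16 tested genes known to control class I transcription had an unadjusted p under 0.05. Among 8 tested class I-like genes none passed. Fcgrt, which encodes the neonatal Fc receptor, was the 1 with an unadjusted p under 0.05 (log2 fold 0.80 ± 0.33, adjusted p 0.507). Of all genes tested, 9.68% had such a p.

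Of the 6 pathway lists, that of receptors for class I and related receptors held the only genes that passed. Of its 18 genes, 2 were higher in S303/7A and none was lower, against 0.364% of all genes tested that passed. An unadjusted p under 0.05 was found for 13, of which 6 were higher and 7 lower, against 9.68% of all genes tested. The 7 include Pirb (log2 fold -1.45) and Lilrb4a (-1.71), which myeloid cells are known to express and which were named after their values were seen. The summed monocyte, neutrophil and basophil markers were lower in S303/7A as well, and their part in these values was not tested. Klrc1 and Klrd1, which encode NKG2A and CD94, are also among the 7 and were named after their values were seen. In both, all S303/7A libraries were below all WT libraries. The log2 folds were -0.63 ± 0.20 for Klrc1 and -0.35 ± 0.11 for Klrd1, each with an adjusted p of 0.37. Klrc3, which encodes NKG2E, a partner of CD94, rose to 253, 200 and 238 CPM in S303/7A 5, 6 and 7, against 92.2, 85.3 and 69.2 CPM in WT 1, 2 and 3. Its log2 fold was 1.49 ± 0.13, with an adjusted p of 0.0110, and the call was lost without WT 2 (adjusted p 0.102). Klra17, which encodes Ly49Q, rose to 11.9, 5.96 and 6.64 CPM in S303/7A 5, 6 and 7, against 1.19, 1.67 and 1.40 CPM in WT 1, 2 and 3. Its log2 fold was 2.52 ± 0.33, with an adjusted p of 0.0454, and it passed without S303/7A 6 but not without any other single library, nor with limma-voom. In both genes all 3 S303/7A libraries were above all WT libraries, S303/7A 6 by a wide margin as well.

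Some Ly49 genes showed the split of H2-Q4. In 5 of 11, S303/7A 5 and 7 were at least 1.5-fold beyond the nearest WT library on 1 side and S303/7A 6 was not: Klra1, Klra5 and Klra8 higher, Klra3 and Klra7 lower. The other 6, among them Klra4 and Klra9, did not meet this. Outside the chromosome 17 stretch, 12252 placed genes had a mean of at least 1 CPM. Of these, 40 (0.327%) showed the same split in the higher direction and 78 (0.637%) in the lower, with these Ly49 genes included. Klra1, which encodes Ly49A, had 571.5, 216 and 528 CPM in S303/7A 5, 6 and 7 and 206, 213 and 261 CPM in WT 1, 2 and 3. Klra7, which encodes Ly49G, had 334, 805 and 328 CPM in S303/7A 5, 6 and 7 and 948, 935 and 873 CPM in WT 1, 2 and 3. These Ly49 genes other than Klra8 were named after their values were seen. Sequence shared between transcripts was not searched for the Ly49 and NKG2 genes, so their counts may be uncertain one by one. S303/7A 5 and 7 lay far from the WT libraries in opposite directions for Klra1 and Klra7, and S303/7A 6 was near them. With all 6 libraries the log2 folds were 0.95 ± 0.33 for Klra1 (adjusted p 0.423) and -0.91 ± 0.34 for Klra7 (adjusted p 0.449). Of the 658 genes on chromosome 6 with a mean of at least 1 CPM, 19 (2.89%) had S303/7A 6 as the odd library, against 20 of 669 (2.99%) on chromosome 17 and at most 1.38% on any other chromosome for S303/7A 6. On chromosome 6, 14 genes had S303/7A 7 as the odd library. Such a share was also seen for S303/7A 7 on chromosome X, with 11 of 373 genes (2.95%).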

How the data were processed

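Bulk RNA-seq libraries of sorted splenic NK cells from 3 S303/7A and 3 WT mice were used, 1 mouse per library per the labels' protocols. The tools named in the submitters' processing notes are Trimmomatic, STAR, featureCounts and DESeq2, and the build is GRCm38 (mm10). Their versions, the gene annotation, the strand setting and how reads matching several genes were counted are not given. The raw counts per gene that the authors deposited were analysed. They also deposited the same counts divided by 1 factor per library, which were not used.

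S303/7A was compared with WT by the quasi-likelihood test of edgeR 4.0.16 (R 4.3.3) over all 6 libraries, with TMM factors, after filterByExpr with a minimum count of 10 and a minimum total of 15. Benjamini-Hochberg adjustment ran over all genes tested, with a threshold of 0.05. The script was tested on simulated data. Standard errors are the log2 fold divided by the root of the F statistic, and 95% intervals use the test's degrees of freedom. Floors of 3 counts cover counting error only. Replicate numbers are not shared between genotypes.

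Positions and merged exon lengths came from GENCODE M21 (GRCm38), and promoters from RefSeq (GRCm38.p6), read with Python 3.11.15 and Biopython 1.88. Merged exons include rare isoforms, so levels per kb are approximate. The 10 genes, 6 pathway lists and 7 cell type lists were chosen with earlier results of these data known. Genes named in the text are all 10 members, list genes that passed or, failing that, up to 4 per list with an unadjusted p under 0.05, Tap2, Nlrc5 and Psmb8 whatever their values, the 5 genes most like H2-Q4 and the 5 most like the other members, and genes of the chromosome 17 stretch with the widest range. Others are said to be named after their values were seen.

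The alternatives were DESeq2 size factors, library totals, no low-count filter, DESeq2 1.42.0, limma-voom (limma 3.58.1), H2-Q6 and H2-Q7 as 1 row, and leaving out each library in turn.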

Additional observations from a re-analysis of the deposited data

How the results depend on the processing

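No member passed the test with DESeq2 size factors, library totals, no low-count filter, DESeq2, limma-voom or H2-Q6 and H2-Q7 as 1 row. Leaving out each library in turn gave between 0 and 2 members passing, with 2 only without S303/7A 6. The direction was kept in every alternative run for H2-D1, H2-K1, H2-Q4, H2-Q6, H2-Q7, H2-T23 and B2m, and was not in some for H2-T22 (log2 fold -0.05 to 0.06), Tap1 (-0.12 to 0.01) and Tapbp (-0.12 to 0.01). Over these alternatives the log2 fold was 0.36 to 0.61 for H2-D1 and 1.44 to 2.17 for H2-Q4. Of the 238 genes of the chromosome 17 stretch, 7 passed without the low-count filter, 12 with DESeq2, 0 with limma-voom and between 0 and 11 when 1 library was left out, against 2 in the fit reported. At an unadjusted p under 0.05 there were 30 (12.6%), against 9.68% of all genes tested. Of the list genes tested, 7 passed without the low-count filter, 10 with DESeq2, 1 with limma-voom and between 0 and 11 when 1 library was left out, against 2. The count of 11 came without S303/7A 6 in both. The cause of these differences was not tested. No paired analysis was possible because the genotypes share no replicate numbers. With 3 mice per genotype, small differences in genes such as H2-T23 could not be resolved.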
